A study of Homo sapiens with 2 samples.

Results

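Cells with endothelial-like markers were followed in 2 single-cell libraries of SK-N-BE(2)-C-pIND-HRASV12, a neuroblastoma cell line that carries an inducible mutant HRASV12. A cell was a member when it held at least 1 count of 3 or more of 8 genes: CD93, EMCN, GIMAP4, CDH5, KDR, ESAM, PLVAP and MMP1. By this rule 55 of 1622 cells were members, 43 of the 666 cells of the induced library and 12 of the 956 cells of the control library. Cells of the induced library had received doxycycline at 100 ng/ml for 13 days, and control cells had been left untreated for the same time; both groups carried the construct and shared 1 growth protocol. Each group is 1 library, so cells are not replicates, no p-value is given, and every interval below is at 95% and covers counting error only. The labels do not say whether the line is 1 clone. The members were chosen on their counts, so what follows describes them and tests nothing.

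Endothelial cells line blood and lymph vessels. They are held together by adherens junctions built on VE-cadherin (CDH5), they carry receptors for VEGF (KDR, FLT1), angiopoietin (TEK, with its partner TIE1) and apelin (APLNR), and they lay a basement membrane of type IV collagen (COL4A1, COL4A2). Their identity is held by ETS factors such as ERG and FLI1 together with SOX7, SOX17, SOX18 and TAL1. Adrenergic neuroblastoma cells, by contrast, run a sympathetic program of PHOX2A, HAND2 and GATA3 with catecholamine enzymes such as DBH and TH and granins such as CHGA. MYCN is amplified in SK-N-BE(2)-C. Among the 8 genes, CD93 and EMCN (endomucin) are sialylated surface proteins of vessels, ESAM is a tight-junction adhesion molecule, PLVAP forms the diaphragms of endothelial fenestrae and caveolae, GIMAP4 is a small GTPase known from lymphocytes and vessels, and MMP1 is an interstitial collagenase that many cell types make.

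Some of the members stood apart in quality and are named before the results. Of the 27 induced members with 3 or 4 of the genes, 10 had under 5% mitochondrial counts, a split chosen after seeing the data. These 10 cells had a median of 438032 counts and 0.443% mitochondrial counts, and they gave 49.4% of all counts of the induced members. The other 17 cells with 3 or 4 genes had a median of 91444 counts and 11.5% mitochondrial counts. The 16 induced cells with 5 or more genes had a median of 77696 counts and between 6.13 and 12.8% mitochondrial counts, so none of them was in the low mitochondrial group. Among the 623 other induced cells 84 had under 5% mitochondrial counts, with 17.4% of the counts, against 6 of the 944 other control cells. Values are given first for the 16 cells with 5 or more genes. The induced library held 80359736 counts and the control library 95350640, with medians of 111582 and 85821 counts per cell, no cell barcode was shared between them, and every cell was marked a singlet in the deposited annotation.

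Members made up 6.46% of the induced library (Clopper-Pearson interval 4.71 to 8.60%) and 1.26% of the control library (0.650 to 2.18%). The number of genes detected was low in most cells: in the induced library 448 cells had none of the 8 genes, 140 had 1, 35 had 2, 21 had 3, 6 had 4, 3 had 5, 2 had 6, 4 had 7 and 7 had all 8. In the control library 740, 174, 30, 9 and 2 cells had 0, 1, 2, 3 and 4 of the genes, none had 5, 6 or 7, and 1 cell had all 8. A deeper cell meets such a rule more easily. With every cell thinned at random to 53000 counts, which left out 104 induced and 190 control cells, 18 of 562 induced cells (3.20%, 1.91 to 5.01%) and 8 of 766 control cells (1.04%, 0.452 to 2.05%) met it. Thinned, the rule of 5 or more genes was met by 9 induced cells (1.60%, 0.735 to 3.02%) and 1 control cell (0.131%, 0.00331 to 0.725%). The gap between the libraries was thus smaller at equal depth, and the intervals of the share of all members then overlapped. The cells left out included 10 of the 43 induced members, 6 of them among the 16 with 5 or more genes, and 1 of the 12 control members. The thinned shares thus carry this loss of cells as well as the lower depth.

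ESAM and EMCN were the genes most members shared, with CDH5 beside them in the control library. ESAM had a count in all 43 induced and all 12 control members, and EMCN in 38 and 11 of them. Outside the members ESAM was still detected in 15.1% of the induced and 9.53% of the control cells, and EMCN in 11.7 and 10.6%. CDH5 had a count in 11 of the 12 control members, as many as EMCN, and in 3.39% of the other control cells, and leaving either gene out of the rule left 4 control members. In the induced library the other 6 genes were rare outside the members: CD93 was seen in 2.41% of the other induced cells, MMP1 in 1.93%, CDH5 in 1.28%, KDR and PLVAP in 0.482% each and GIMAP4 in 0.321%. Members held 99.2% of all GIMAP4 counts of the induced library, 98.1% of those of KDR, 97.9% of CD93, 97.8% of PLVAP, 96.2% of CDH5, 93.5% of MMP1, 88.1% of EMCN and 69.2% of ESAM. These shares follow from the rule and are given as a description.

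Within the members the 8 genes did not spread evenly. Every one of the 16 induced cells with 5 or more genes had CD93, EMCN and ESAM, 14 had GIMAP4, 14 CDH5, 14 PLVAP, 11 MMP1 and 10 KDR. CD93 stood between 49.7 and 2754 CPM (the usual scaling of counts by the total of the cell) in these cells with a median of 686, and EMCN between 74.5 and 1204 with a median of 459. No cell among the 27 induced members with 3 or 4 genes had a KDR count, 4 had GIMAP4, 5 MMP1, 6 PLVAP, 9 CDH5 and 14 CD93. Of the 11 control members with 3 or 4 genes, none had GIMAP4, KDR, PLVAP or MMP1, so the rule was met there by EMCN, CDH5, ESAM and CD93 alone. KDR, the main VEGF receptor of endothelium, was thus seen among members in 10 induced cells and the 1 control cell with all 8 genes. The map of counts shows a dense block of 16 induced cells, a sparse field of 27, and 1 dense control cell beside 11 sparse ones.

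**Figure D1:**
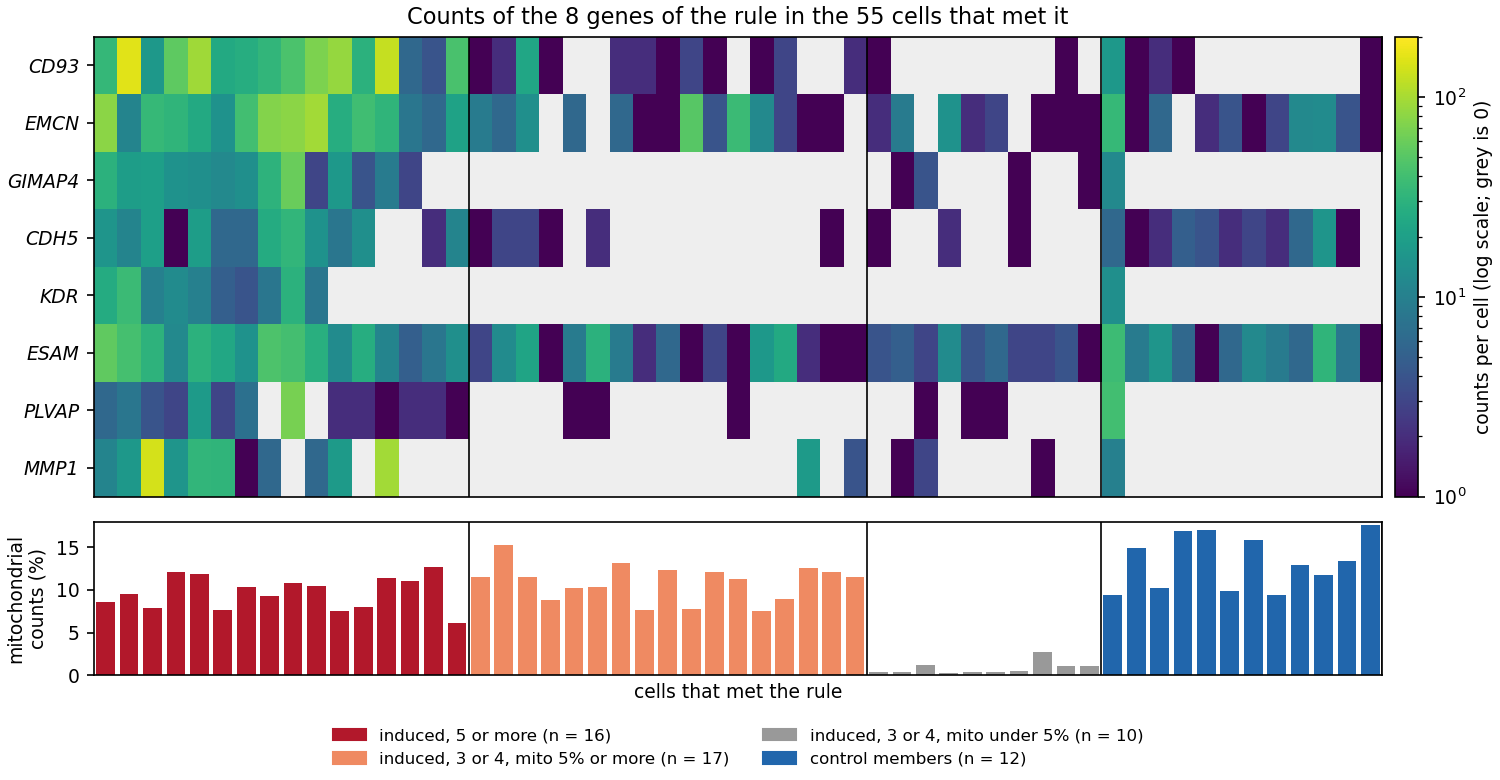
Counts of the 8 genes of the rule (rows; colour on a log scale, grey is 0) in the 55 members (columns), with the percent of mitochondrial counts of each cell as bars below. The 16 induced cells with 5 or more genes are filled across most genes and had 6.13 to 12.8% mitochondrial counts, while the 10 grey-barred cells with 3 or 4 genes lay under 5%.

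The label was checked on 16 endothelial markers that the rule did not use, of which 15 were in the table (SOX17 was not matched). The 16 cells with 5 or more genes had counts of 7 to 13 of the 15 markers, with a median of 12, and 15 of them had 8 or more. Other induced cells had 0 to 8 with a median of 2, and 4 of the 623 had 8 or more. At 53000 counts per cell the 10 deep enough cells of the 16 still had 5 to 13 with a median of 11, against 0 to 6 with a median of 2 in other cells. Induced cells with 3 or 4 genes lay between, at 3 to 9 with a median of 6, and at 1 to 8 with a median of 3 once thinned. Just inside the threshold, the 21 induced cells with exactly 3 genes had 3 to 8 of the markers (median 6), and just outside it the 35 cells with 2 genes had 0 to 8 (median 3). In the control library the corresponding ranges were 2 to 9 (median 5) for 9 cells with 3 genes and 0 to 7 (median 3) for 30 cells with 2. At 53000 counts the step was small in the induced library, at 1 to 8 (median 3) for 19 cells with 3 genes and 0 to 6 (median 2.5) for 32 with 2. In the control library it was 1 to 9 (median 4) for 8 cells and 0 to 6 (median 2) for 28. The control cell with all 8 genes had 13 of the 15 markers. The name endothelial-like thus goes with the wider marker set most clearly in that cell and the 16 induced cells, and in lower degree in the cells with 3 or 4 genes, whose range overlaps that of the other cells. In the 17 induced cells with 3 or 4 genes and at least 5% mitochondrial counts, fibroblast and some smooth muscle markers were higher too when pooled. The fibroblast sum was uneven among these cells.

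Summed over the 15 markers, the 16 cells stood at 158 to 4583 CPM per cell with a median of 2253, and the other induced cells at 0 to 382 with a median of 49.3. All but 1 of the 16, 15 cells, were above the highest other induced cell. Of the 27 cells with 3 or 4 genes 6 were above it. The 9 adrenergic markers ran the other way: they summed to 17.5 to 358 CPM with a median of 130 in the 16 cells, and to 21.5 to 10276 with a median of 2276 in the other induced cells. Each of the 16 lay below the 5th percentile of the other induced cells, 368 CPM, although a few other cells were as low. The 17 cells with 3 or 4 genes and at least 5% mitochondrial counts had a median of 416 CPM, and the 10 with less ranged from 57.0 to 2197 CPM with a median of 2100. Those 10 cells were split. In 3 of them, with 17543 to 43620 counts, the endothelial sum was 413 to 912 CPM, above every other induced cell, and the adrenergic sum 57.0 to 183 CPM, below the 5th percentile. In the other 7, with 155150 to 599978 counts, the endothelial sum was 38.4 to 113 CPM and the adrenergic sum 909 to 2197 CPM.

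Receptors and junction proteins outside the rule were present at high levels in the 16 cells. TIE1, the orphan partner of the angiopoietin receptor, was at 0 to 353 CPM per cell with a median of 200 and had counts in 14 cells; pooled it stood at 134 CPM against 0.853 in the other induced cells, a ratio of 157 (117 to 213). TEK, the angiopoietin receptor itself, had counts in 13 of the 16 cells and in 9 of the 623 others, and pooled it stood at 47.5 CPM against 0.135. FLT1, the VEGF receptor that binds ligand most tightly, was found in all 16 cells at 13.8 to 948 CPM, with a ratio of 48.9 (41.1 to 58.2) to the others. Endoglin (ENG), a co-receptor for TGF-beta and BMP ligands, was also found in all 16, at 37.3 to 667 CPM, and its ratio was 56.6 (48.0 to 66.7). PECAM1, the platelet and endothelial adhesion molecule, reached 95.8 CPM pooled against 2.45, a ratio of 39.1 (30.9 to 49.4), but was also detected in 142 of the 623 other cells. The apelin receptor APLNR was at 464 against 12.6 CPM, and CD34, a sialomucin of endothelial and blood-forming progenitors, at 163 against 1.04. ECSCR, MMRN2 and ROBO4, which are known mainly from endothelium, had counts in 14, 13 and 12 of the 16 cells and in 23, 21 and 8 of the 623 others. Some classical markers were weak even here: VWF, the storage protein of Weibel-Palade bodies, was seen in 6 of the 16 cells and the tight-junction claudin CLDN5 in 2, and CLEC14A had no count in any member.

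As a list, 32 of 35 measured endothelial surface and junction genes, none of them in the rule, were at least 1.5-fold higher in the 16 cells than in the other induced cells, and 2 were at least as much lower. Measured means at least 10 CPM in either set of cells. A gene under 10 CPM in the other cells is thus measured only where the 16 cells reach 10 CPM, and cannot be called lower. The reverse holds for a gene under 10 CPM in the 16 cells. This filter shapes the counts and medians of the lists here and below, and the shares over all genes carry the same filter. Over all 10030 genes measured in that comparison 31.4% were at least 1.5-fold higher and 21.2% lower, in a comparison where the 16 cells held 1305126 counts. The list's median log2 ratio (of CPM plus 1) was 4.22, against 0.15 over all measured genes. Over all 43 induced members 4.14% of 8994 measured genes were at least 2-fold higher than in other induced cells and 3.1% lower, and in the control members 4.67 and 4.95% of 9138. In the comparison of all 43 induced members with other induced cells, in which 7.25% of 8994 genes were higher by that measure and 11% lower, 23 of 27 genes of the list were higher and 1 lower, with a median of 2.86 against -0.06. The 17 cells with 3 or 4 genes and normal mitochondrial counts had 18 of 21 higher and 1 lower, with a median of 2.25, where 11.9% of 9215 genes were higher and 9.76% lower and the median of all was 0.00.

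Endothelial transcription factors were split between factors found almost nowhere else in the library and factors that other cells shared. ERG, an ETS factor that keeps endothelial genes on, had counts in all 16 cells at 9.89 to 186 CPM with a median of 52.4, in 1 of the 27 cells with 3 or 4 genes and in 5 of the 623 others. Its pooled ratio to the other cells was 745 (327 to 2091). FLI1, the close ETS relative of ERG, was in all 16 cells at 9.89 to 444 CPM, in 17 of the 27 and in 45 of the 623. TAL1, a bHLH factor shared by blood and endothelium, was in 13 of the 16 and at 31.4 against 0.758 CPM. SOX7 and SOX18 were different in kind, since 79.0 and 64.7% of the other induced cells also had counts of them. SOX7 nevertheless stood at 556 CPM in the 16 cells against 27.7, a ratio of 20.1 (18.4 to 21.9), and SOX18 at 329.5 against 19.3, a ratio of 17.1 (15.3 to 19.0). ETS1 was at 332 against 12.6 CPM and HHEX, a homeobox factor of early endothelium, at 147 against 8.87. LMO2, a partner of TAL1, and LYL1 were nearer to the other cells, at ratios of 3.03 (2.57 to 3.55) and 2.56 (2.09 to 3.11). In the whole list 20 of 23 measured factors were at least 1.5-fold higher and 1 lower, where 31.4% of all genes were higher and 21.2% lower. The lower one was GATA2, which serves both endothelium and the sympathetic lineage and stood at 72.0 against 538 CPM.

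Basement membrane collagens gave some of the widest gaps. COL4A1, which pairs with COL4A2 in the collagen IV trimer, was found in all 16 cells at 19.8 to 2027 CPM with a median of 338, and the 16 cells held 86.7% of its counts in the induced library. Its pooled level was 501 CPM against 0.731 in the other cells, a ratio of 685 (519 to 922). COL4A2 stood at 351 against 2.41 CPM and was found in 15 of the 16. The secreted protease HTRA1 was at 320 against 0.988 CPM, a ratio of 323 (252 to 420), and the Kunitz protease inhibitor TFPI2, a matrix protein of endothelium and placenta, at 720 against 6.78, a ratio of 106 (95.2 to 119). TFPI2 was uneven among the cells, from 20.6 to 5222 CPM. MMP14, a membrane-bound collagenase, had counts in 11 of the 16 cells and in 6 of the 623 others. Of 26 measured matrix genes 22 were at least 1.5-fold higher in the 16 cells and 1 lower, with a median log2 ratio of 2.30. Over all genes 31.4% were higher in that comparison and 21.2% lower. COL6A1 (23.8 against 18.1 CPM) was near the low end of the list. The matrix list had the higher median, 2.77 with 28 of 28 genes higher, in the 17 cells with 3 or 4 genes and at least 5% mitochondrial counts. In those 17 cells 11.9% of all genes were higher and 9.76% lower.

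Secreted angiogenic factors and Notch genes showed the differences among the 16 cells themselves. PDGFB, with which endothelium recruits pericytes, was in 12 of the 16 cells, and pooled it stood at 147 against 0.366 CPM, a ratio of 402 (268 to 626). APLN, the apelin ligand, was in 7 cells, DLL4, a Notch ligand of arteries and sprouting tips, in 5, and the arterial gap junction gene GJA5 in 7. Because few cells carried them, GJA5 had a median of 0 CPM and a highest value of 402. NOTCH1 was broader, in 15 of the 16 cells at a pooled 107 CPM against 0.799, and NOTCH4, the Notch receptor of endothelium, was in 13 cells at 44.4 against 3.20. HEY1, a Notch target that other induced cells also expressed (86.5% of them had counts), stood at 360 against 56.1 CPM. In the Notch list 11 of 13 measured genes were at least 1.5-fold higher and 1, DLL3, lower. Of all measured genes 31.4% were higher and 21.2% lower. CRHBP, the binding protein of corticotropin-releasing hormone, was confined to fewer cells still: 8 of the 16 had a count, 2 of them 149 and 114 counts, and these gave most of a pooled 223 CPM, against 1 count in all 623 other induced cells. CRHBP was thus unevenly spread over the 16 cells. VEGFA was not higher, at 29.9 against 67.7 CPM.

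Genes named by size (the 12 with the highest log2 ratio in all 43 induced members, with at least 25 CPM in either set and no cell giving over 25% of the members' counts) were EMP1, DAB2, HTRA1, TFPI2, PDGFB, COL4A1, COL4A2 and 5 genes of the rule itself. EMP1, a small epithelial membrane protein that also stands in the MAPK list, was at 221 CPM in the 16 cells against 0.907, and DAB2, an endocytic adaptor, at 157 against 0.772. Moesin (MSN), which links actin to the membrane, was in all 16 cells at 29.3 to 569 CPM and pooled at 143 against 0.812. Across the 562 thinned induced cells the number of rule genes went most with TM4SF1 (Spearman rho 0.43), TFPI2 (0.42), MYCT1 and ITGA5 (0.39 each), ZFP36L1 and BMP6 (0.38), ECSCR (0.37), FLI1 (0.36), ENG (0.34) and VEPH1 (0.32). These correlations are over cells of 1 library that share depth and culture, and most of the cells had none of the genes, so they carry no p-value. TM4SF1, a tetraspanin-like protein of vessels and mesenchymal cells, was in 15 of the 16 cells and 25 of the 27, but in 11.1% of the others.

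The sympathetic program was low to absent in the 16 cells. PHOX2A, a homeobox factor that specifies noradrenergic neurons, was detected in 8 of the 16 at up to 198 CPM, with a median of 4.04, while 99.5% of the other induced cells had counts; pooled it stood at 41.4 against 914 CPM, a ratio of 0.0453 (0.0340 to 0.0591). DBH, the enzyme that makes noradrenaline, had no count in the 16 cells against 63.0 CPM. CHGA, a granin of secretory granules, was at 5.36 against 466 CPM, DLK1, a Notch-like membrane protein of chromaffin cells, at 3.83 against 476, and HAND2 at 15.3 against 179. TH, which makes L-DOPA from tyrosine, had no count in the 16 cells and stood at only 1.07 CPM in the other induced cells. GATA3 was lower by less, at 82.8 against 227 CPM, and had counts in all 16 cells. In lists, each of the 18 measured genes of the catecholamine and chromaffin list was lower by 1.5-fold or more (median log2 ratio -3.46), as were 24 of 27 neuronal genes (median -3.16). Of 24 adrenergic transcription factors 13 were lower, with 21.2% of all genes lower, and 8 were higher, a share near the 31.4% of all genes that were.

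Counts of MYCN and HRAS were found in most of the 16 cells. The share of such counts that comes from free RNA was not estimated, and 93.1% of the other induced cells had MYCN counts too. MYCN had counts in each of the 16 cells, from 91.5 to 4409 CPM with a median of 471, and pooled it stood at 782 CPM against 384 in the other induced cells. The lowest of the 16 cells was thus under the pooled level of the other cells and the highest far above it. HRAS, counted without telling the construct from the native gene, was in 14 of the 16 cells at 73.6 CPM pooled against 163 in the other induced cells, a ratio of 0.451 (0.365 to 0.552), and the other control cells stood at 110. NRAS was at 65.1 against 56.3 CPM.

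**Figure D2:**
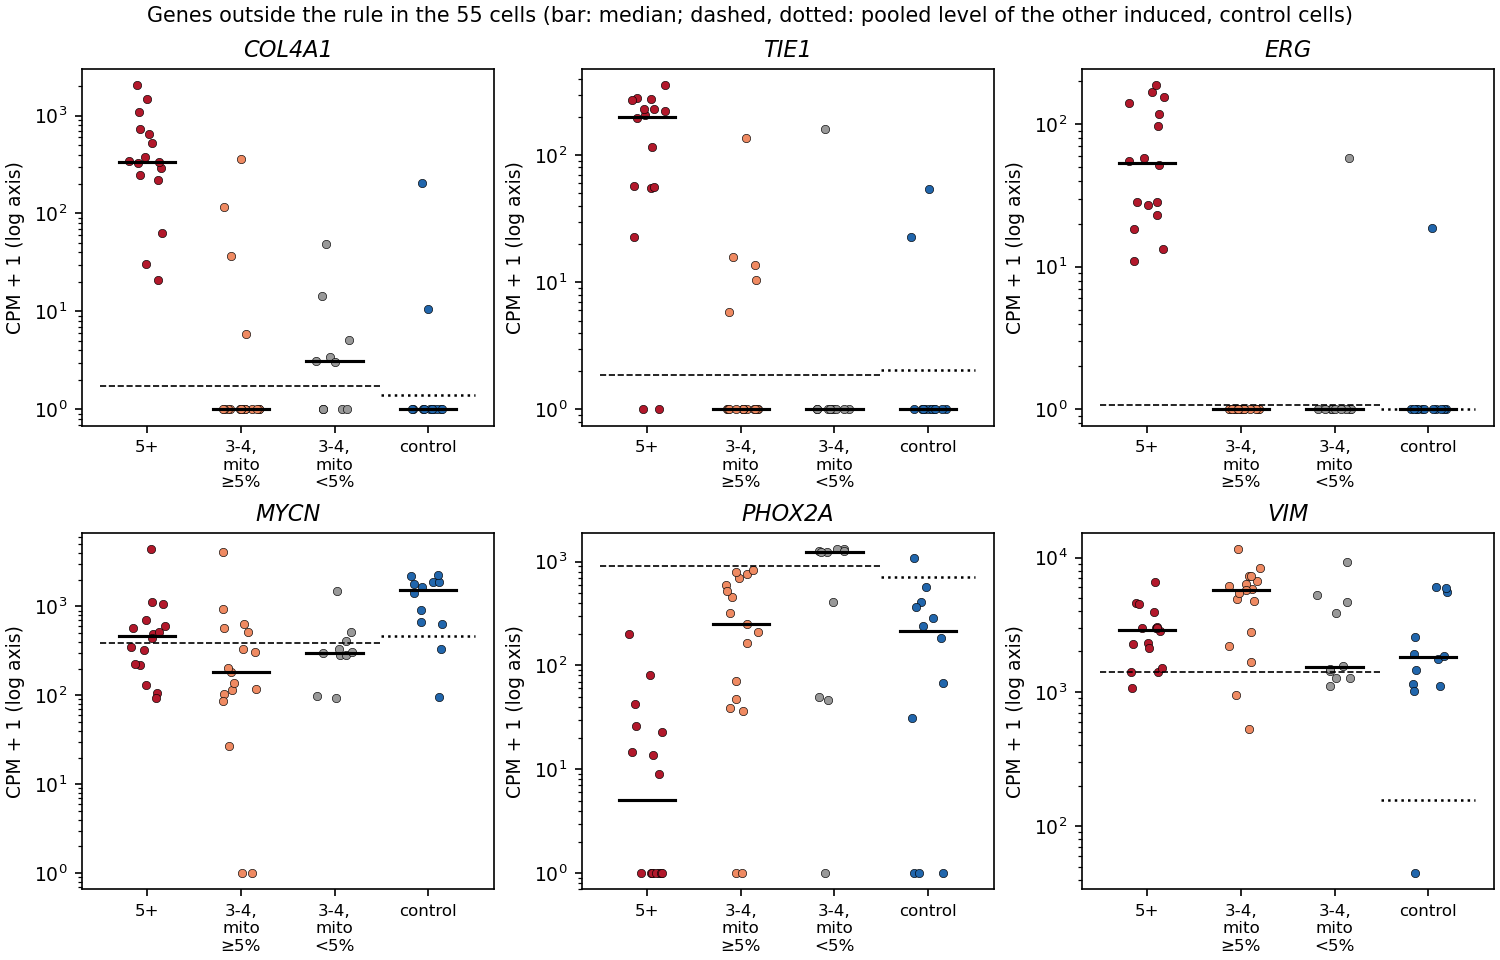
CPM plus 1 (log axis) of 6 genes outside the rule in each of the 55 members, by class, with the median of the class as a bar and the pooled level of the other induced (dashed) and other control cells (dotted). COL4A1 and ERG were found in each of the 16 induced cells with 5 or more genes, whereas ERG had a count in 1 of the 27 with 3 or 4; PHOX2A ran the other way, and MYCN was found in all 16.

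Cells with 5 or more genes carried few transcripts of the cell cycle. MKI67, a marker of cycling cells, had counts in 2 of the 16 cells and stood at 1.53 CPM against 90.6 in the other induced cells, and TOP2A, the replication-linked topoisomerase, at 2.30 against 126. In the S phase list 33 of 39 measured members were lower by 1.5-fold or more (median log2 ratio -1.77), and in the G2 and M phase list 49 of 55 were lower and 1 higher (median -1.995). Of all measured genes 21.2% were lower and 31.4% higher. At equal depth all 10 of the 16 cells that could be scored were called G1 (69.2 to 100%), against 54.4% (50.1 to 58.7%) of the other induced cells. Members with 3 or 4 genes were called G1 in 13 of 23 cells (56.5%, 34.5 to 76.8%). Phase calls read free RNA too.

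Induced members with 3 or 4 genes differed from the 16 in more than degree. ANXA1, a membrane-binding annexin, had no count in the 16 cells, while 13 of the 27 cells with 3 or 4 genes had counts and the other induced cells stood at 18.5 CPM. The 17 of them with at least 5% mitochondrial counts stood at 79.0 CPM. ANKRD1, a target of YAP and TAZ, was at 6.13 CPM in the 16 cells, 111 in those 17 and 24.7 in the other induced cells. In the same order TAGLN and ACTA2, genes of contractile cells, stood at 1.53, 74.5 and 10.6 CPM and at 61.3, 271 and 64.6 CPM. Vimentin was high in both, at 2645 CPM in the 16 cells and 4423 in the 17, against 1408. In the mesenchymal surface and cytoskeleton list 25 of 36 measured genes were higher and 1 lower in the 17 cells (median 1.32), where 11.9% of all genes were higher and 9.76% lower. In the 16 cells 15 of 35 were higher and 11 lower (median 0.25), not far from the 31.4 and 21.2% of all genes. Pooled over the 10 cells with under 5% mitochondrial counts, PHOX2A stood at 1197 CPM, VIM at 1596 and EMCN at 10.6, values that the 7 deeper cells among them dominate.

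**Figure D3:**
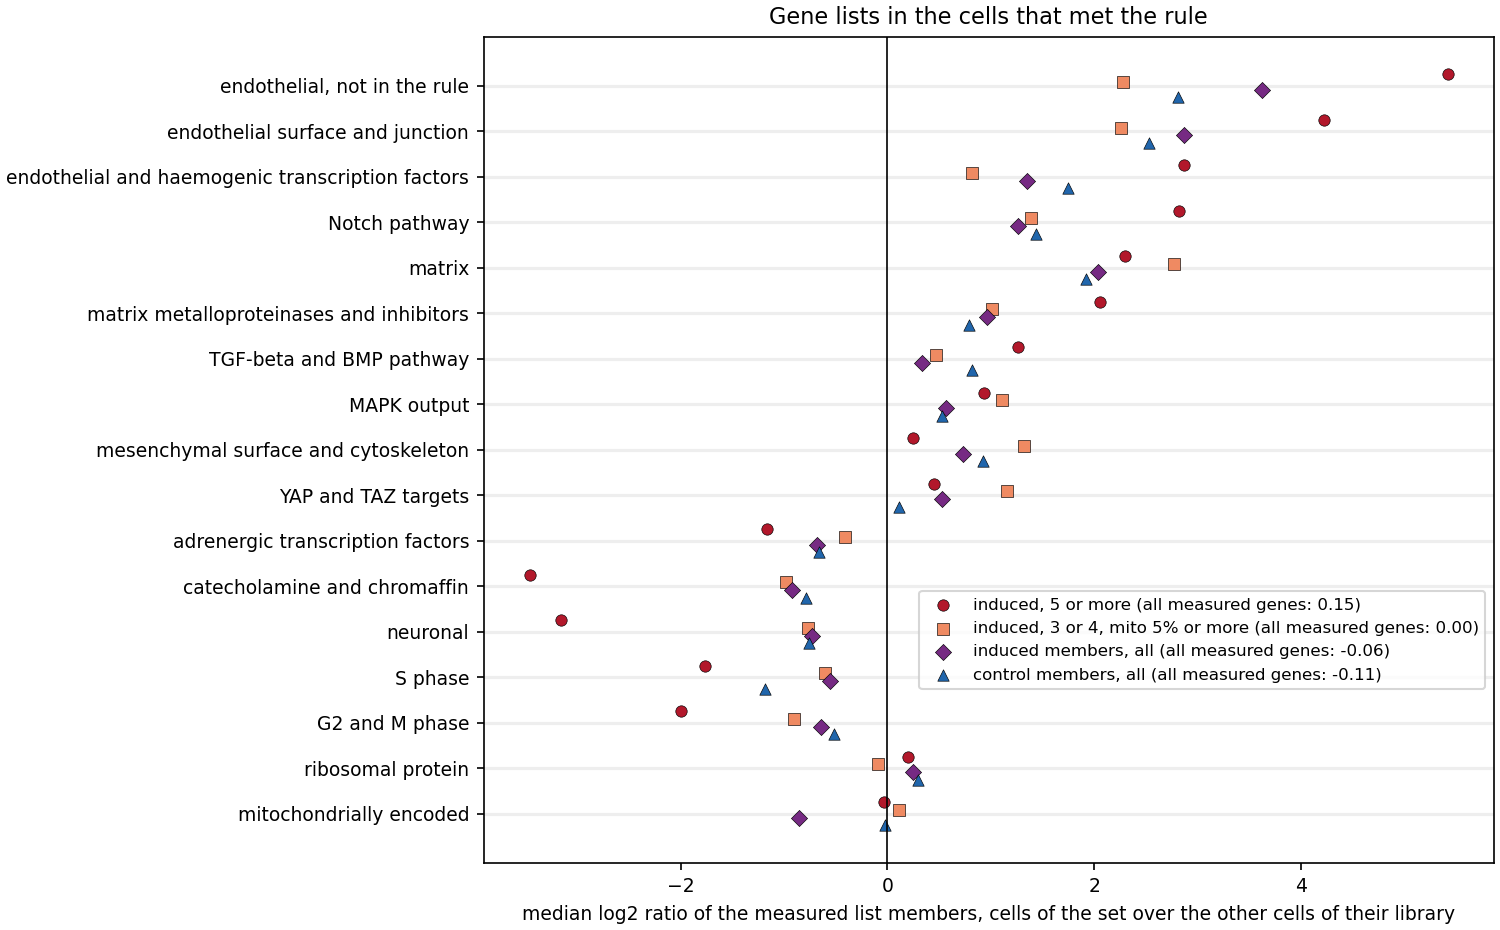
Median log2 ratio (CPM plus 1) of the measured members of 17 gene lists, for 4 sets of members against the other cells of their library; the legend gives the median over all measured genes. Endothelial lists lie furthest right and catecholamine and neuronal lists furthest left in the 16 induced cells with 5 or more genes, at 5.42 for the 13 measured markers not in the rule and -3.46 for the catecholamine list.

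In the control library 1 cell held all 8 genes of the rule and 11 held 3 or 4 of them. The cell with all 8 genes had 170482 counts, 9.36% mitochondrial counts, 35 EMCN, 40 PLVAP and 14 KDR counts, 3 ERG counts and 35 COL4A1 counts. It differed from the 16 induced cells in keeping CHGA at 463 CPM and in carrying 60 MKI67 counts. PHOX2A stood at 241 CPM in it, with 41 counts, while the deepest of the 16 had 36 counts of PHOX2A in a total of 181522. MYCN stood at 2235 CPM in the control cell. The other 11 control members had EMCN at 45.1 CPM against 1.19 in the other control cells, CDH5 at 40.3 against 0.467 and ESAM at 102 against 1.73, genes that chose them. Without having been chosen on them, they also had FLI1 at 21.1 against 0.436 CPM, ENG at 30.7 against 1.18, MYCT1 at 34.5 against 0.531 and ZFP36L1, an mRNA-decay factor, at 57.5 against 0.202. VIM and EDN1 also set control members apart: VIM was at 2376 against 156 CPM, and EDN1, encoding the vasoconstrictor endothelin made by endothelium, at 265 against 2.45, with counts in 8 of all 12 members and 1 cell at 2043. COL4A2, HTRA1, EMP1, DAB2, KDR, PLVAP, MMP1 and ERG had no count in the 11 cells, and TIE1 stood at 0.959 CPM against 1.05, so the gap of these genes over all 12 members came from 1 cell.

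Across all 12 control members 19 of 20 measured endothelial surface and junction genes were at least 1.5-fold higher than in the other control cells and none lower, in a comparison where 9.94% of 9138 genes were higher and 15.6% lower. Without the cell with all 8 genes it was 16 of 17 higher, where 9.75% of 9136 genes were higher and 19.2% lower. Cell by cell the sets overlapped. Summed over the 15 endothelial markers not in the rule, control members with 3 or 4 genes reached at most 841 CPM. The highest other control cell stood at 947 CPM, and 1 of the 12 control members was above it. Sympathetic genes were lower but present, with PHOX2A at 252 against 707 CPM and CHGA at 236 against 1014. MYCN was at 1358 against 469 CPM, a ratio of 2.90 (2.76 to 3.04), with a median of 1542 over the 12 cells and a range of 93.8 to 2235. In the S phase list 38 of 41 genes were lower by 1.5-fold or more, and 7 of 11 thinned members were called G1 (63.6%, 30.8 to 89.1%) against 14.2% (11.8 to 16.9%) of the other control cells. The 5 genes highest by the size rule were ZFP36L1, VIM, PROCR (the endothelial protein C receptor, 111 against 9.43 CPM), BMPER and COL23A1, and the 5 lowest included HIST1H1D, HIST1H1B, INSM2 and DBH.

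Markers of other cell types were checked in the same cells. Of the 4 matched immune markers PTPRC, the pan-leukocyte antigen, and TYROBP had no count in the 16 cells, and the list summed to 0 to 220 CPM per cell, nearly all of it LAPTM5; pooled the list stood at 42.1 CPM against 2.82 in the other induced cells. In a wider list of 18 immune genes the 3 measured, LAPTM5 among them, were all at least 1.5-fold higher (median log2 ratio 4.45). Erythroid markers summed to 0 to 46.5 CPM, with HBB and GATA1 at 0. Pericyte and smooth muscle markers were lower, at a pooled 1642 CPM against 3636; they summed to 392 to 3570 CPM against 0 to 12319 in the other induced cells, a sum that RGS5 dominates in both (1564 against 3544 CPM), with CSPG4 at 0. Fibroblast markers were higher, at a pooled 323 CPM against 61.3 and a median of 31.9 against 13.6 per cell, with 3 of 3 measured markers higher by 1.5-fold or more (median log2 ratio 2.69), though the ranges of 0 to 2413 and 0 to 3841 CPM overlapped. LUM made up most of the sum (260 against 50.9 CPM pooled), COL1A1 came from 2 cells, and POSTN was at 0. Over all genes 31.4% were higher in the 16 cells. In the 17 cells with 3 or 4 genes and at least 5% mitochondrial counts, 4 of 4 measured fibroblast markers were higher (median 2.91, pooled 539 CPM). Per cell the fibroblast sum was uneven there, from 0 to 4934 CPM with a median of 134, and a cell with 3 genes stood at 4473 CPM. Of 3 measured pericyte and smooth muscle markers 2 were higher there and 0 lower (median 2.05), though the pooled sum was 3703 CPM. The 6 measured endothelial markers not in the rule had a median of 2.27, where 11.9% of all genes were higher. Epithelial markers summed to 0 to 104 CPM against 0 to 1529, and Schwann markers to 0 to 104 against 0 to 157. Their part in the results was not tested.

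When all 1622 cells were clustered on 2000 variable genes without the 8 genes of the rule, the 16 cells fell together. All 16, and 40 of the 43 induced members, were in 1 of 8 clusters, which held 120 induced and 15 control cells; 6 of the 12 control members were in it too. Its leading genes included TM4SF1, ANXA1, CD93, ANKRD1, TFPI2 and COL4A1, a mixture of genes of the 16 cells and of the cells with 3 or 4 genes, and they hold fewer than 3 of the endothelial markers, so it was left unnamed. With a lower resolution of 0.3, 15 of the 16 made up most of a cluster of 17 induced cells and 26 of the 43 members lay in another, larger one. At a resolution of 1 all 16 were in a cluster of 81 cells with 33 of the 43 members. Closeness in these clusters is a description, since genes that go with the 8 remained among the variable genes.

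The promoters of these genes were looked at for short letter patterns like the sites of ETS, AP-1, GATA and SOX factors, because ETS and SOX factors were among the genes that separated the 16 cells. Of 31 genes (the rule, the endothelial markers and the named higher genes) 19 were in the RefSeq table of windows from 250 bases before to 50 after the start site (GRCh38.p14), 4 of them rule genes. A gene counted if any of its windows held the letters on either strand. The ETS core CCGGAAGT was found for 0 of the 19 genes (4.95% of 27305 genes have it in such a window), the shorter core ACAGGAAG for 1 (3.67%), the AP-1-like pattern TGANTCA for 2 (9.37%), the GATA site AGATAAG for 2 (3.27%) and the SOX site AACAATG for 1 (4.08%), where N is any base and overlaps between motifs were allowed. Shown 5′ to 3′ on the gene's strand, with the matching letters in capitals and none of the bases after the start site, are 1 stretch each for an endothelial receptor, an endothelial surface protein and a matrix inhibitor:
TEK (chr9:27109243-27109309, plus strand): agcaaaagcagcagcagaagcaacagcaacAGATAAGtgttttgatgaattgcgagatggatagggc
ECSCR (chr5:139462753-139462820, minus strand): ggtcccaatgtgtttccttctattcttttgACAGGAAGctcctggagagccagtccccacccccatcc
TFPI2 (chr7:93890804-93890870, minus strand): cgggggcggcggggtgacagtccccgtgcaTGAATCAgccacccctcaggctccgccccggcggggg
The first match began 177 bases before the start site in TEK, 47 in ECSCR and 87 in TFPI2. A match describes letters and not binding, and with 19 genes counts of 0 to 2 are not a result about these genes.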

How the data were processed

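Droplet single-cell libraries were made from 1 doxycycline-treated and 1 untreated culture, per the labels. Alignment and counting used kallisto and bustools according to the submitters' processing notes, which give neither version nor genome build. The deposited table holds counts for 36027 genes and 1622 cells, and the deposited annotation gives each cell's type and its mitochondrial percent as the authors computed it. The annotation names no barcodes and was matched in column order: the barcode suffix went with the sample number in every cell, and column sums differed from the annotated totals by at most 192 counts. Counts were summed over the cells of a set and scaled to CPM. Log2 ratios used a pseudocount of 1 CPM. This understates differences of low genes. A gene was measured if it reached 10 CPM in either set. Shares have exact Clopper-Pearson intervals and ratios exact conditional Poisson intervals. A fold of 2 was used for counts over all genes and 1.5 for list members. Phases and clusters came from scanpy 1.11.5 and igraph 0.11.9; TMM and DESeq2 factors (edgeR 4.0.16, DESeq2 1.42.0) were alternatives for scaling and used for no test. On simulated counts of 8623 genes for the induced members against other induced cells, 100 of 100 genes made 3-fold higher, 100 of 100 made lower and 0 of 8423 unchanged genes passed 2-fold; the simulation held Poisson error only. The members and the 30 gene lists were chosen with earlier results of these data known. Named genes were the 8 of the rule, the 12 highest and 12 lowest in the induced and 5 and 5 in the control library with at least 25 CPM, and the 2 highest and lowest of each list; other genes named were chosen after their values were seen, and a few genes that the rule or a list holds are not reported here. Genes with near-identical copies, RAS genes among them, have uncertain levels in such counting.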

Additional observations from a re-analysis of the deposited data

Results flagged for a closer look

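CRH, which encodes corticotropin-releasing hormone, differed in opposite directions in the libraries: its log2 ratio of members over other cells was -1.71 after induction and 1.30 without it. The difference was not tested. Induced members stood at 115 CPM against 380, and control members at 484 against 196, where 6 of 12 members had a count, the median was 2.93 CPM and the highest cell had 3465. In the 3 control members with 4 or more of the 8 genes the log2 ratio was -1.79.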

How the results depend on the processing

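No paired analysis was possible because each group is 1 library. The number of induced members, 43, became 78 with 2 or more genes, 22 with 4 or more, 26 without EMCN in the rule, 22 without ESAM, 22 with at least 2 counts of each gene and 18 on thinned counts; the 12 control members became 42, 3, 4, 3 and 6 under the first 5 of these and 4 without CDH5. Genes at least 2-fold higher and lower in induced members, 372 and 279 (4.14 and 3.1% of 8994), were 850 and 557 by the mean of per-cell CPM, 676 and 516 thinned, 687 and 449 with no filter beyond 1 count, 100 and 99 at 50 CPM, 739 and 577 with 4 or more genes, and 883 and 629 without the 5% of cells with the most counts; with a pseudocount of 5, 141 were lower. Settings chosen after seeing the data gave 1894 and 1267 (5 or more genes, against all other induced cells) and 821 and 466 (only cells above the lowest 5% of the control library by mitochondrial percent). In control members 427 and 452 genes (4.67 and 4.95% of 9138) became 1135 and 1747 with no filter, 128 and 132 at 50 CPM, and 1134 and 822 with 4 or more genes, and the lower ones 893 thinned and 251 with a pseudocount of 5. Higher genes were 57.1% of the induced calls, 67.0% with a pseudocount of 5; in control they were 48.6%, 58.6% with totals without ribosomal protein and mitochondrial genes, and 38.0% without the member with all 8 genes. The induced members in their fullest cluster were 26 in place of 40 at resolution 0.3.

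Among genes at least 2-fold apart and list medians at least 1.5-fold apart, the log2 ratios that changed sign were, in induced members, FOSL1 (-0.22) with 4 or more genes, and with 5 or more FOSL1 (-1.32), TAGLN (-2.45), ACTA2 (-0.22) and the medians of pericyte markers (-1.18) and mitochondrially encoded genes (0.018). In control members they were CRIM1 (-0.0048) thinned, COL1A1 (-1.69), CRH (-1.79) and TAGLN (-0.45) with 4 or more genes, and, without the member with all 8, COL4A2 (-1.15), DAB2 (-0.75), EMP1 (-0.075), HTRA1 (-0.015), KDR (-0.015), MMP1 (-0.030), PLVAP (-0.030), TIE1 (-0.067) and VEPH1 (-0.17). Smaller values changed sign more often: 11 values of 4 list medians and 70 values of 20 genes in induced members, and 25 of 13 and 56 of 31 in control members. Examples are the median of the control G2 and M phase list, -0.52 and 0.64 with 4 or more genes, of the control ribosomal protein genes, 0.29 and -0.12 with 4 or more genes, of the control pericyte markers, -0.37 and 0.69 without the member with all 8, of the induced MAPK list, 0.56 and -0.014 at 50 CPM, and of the induced AP-1 genes, 0.38 and -0.22 with 4 or more; the induced CDK inhibitor median of -0.05 was positive in 5 settings. The cause was not tested, except that a setting with fewer members rests on fewer counts. The median of the endothelial markers not in the rule stayed positive in the settings run, from 2.14 to 5.22 in induced and 1.77 to 3.95 in control members, and that of the catecholamine list negative, from -3.43 to -0.86 and -1.22 to -0.69. Except with no filter beyond 1 count, a marker low in the other cells enters the first median only where members are high. The sign of that median was thus largely set by the filter. The reverse holds for catecholamine genes low in the members. Of list medians 804 values moved within their spread and 106 beyond it, and of named genes 2713 and 1500. The depth limits values of genes near 1 count, and 1 library per group leaves the spread between cultures unknown.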
